A study of Mus musculus with 4 samples.

Results

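The polyamine metabolism genes are 10 genes picked by name, the enzymes that make putrescine, spermidine and spermine, the antizymes and the antizyme inhibitor that control the first enzyme, and the enzymes that break polyamines down. All 10 were found by their symbol among the 16718 genes of the table. The RNA came from mouse naive CD4+ T cells that had received anti-CD3, an antibody that triggers the T cell receptor, for 4 h. The labels name 4 libraries, 2 from cells with the genotype Zfp281 cKO (a conditional knockout of a zinc finger transcription factor, here cKO) and 2 from wild type cells (here WT). The sources used here give neither the Cre driver nor the strain and age of the mice, nor whether the libraries came from separate mice.

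The table holds 1 value per gene and genotype, in FPKM (reads scaled to gene length and to the total number of reads), and none per library. How each value was made from the 2 libraries of a genotype is not given in the sources used here. How far libraries of a genotype differ cannot be read from it, so the differences below are without replicates. Folds are cKO over WT ratios of these values. The 95% intervals are exact Clopper-Pearson intervals on estimated reads, 17208609 in all for cKO and 17365815 for WT, and they cover counting error only. Intervals of ratios between genes use a normal approximation on the log scale instead. The words rose and fell are used where the FDR given in the authors' deposited table is under 0.05. On the log10 scale, the deposited p-values correlated at r = 0.999 across genes with those of a recomputed test. That test used 1 estimated read count per genotype, and its scale was in part fitted to the deposited p-values. The FDR is therefore read here as covering counting error only, not as a comparison of conditions. In these bulk samples, fewer cells of a type and less RNA per cell cannot be told apart.

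Polyamines are small, positively charged molecules that bind RNA and DNA and are needed for growth. Ornithine decarboxylase makes putrescine, and spermidine synthase and spermine synthase lengthen it with aminopropyl groups that come from decarboxylated S-adenosylmethionine. When polyamines accumulate, ribosomes shift frame on antizyme mRNA, and the full-length antizyme sends ornithine decarboxylase to the proteasome, a step that mRNA levels do not show. Activated T cells are known to raise polyamine synthesis as they leave the resting state.

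Of the 10 genes, 4 rose in cKO cells (Odc1, Oaz1, Oaz2 and Smox), 4 fell (Amd1, Srm, Azin1 and Sat1) and 2 did not pass (Sms and Paox). Of all 10728 genes that reached 1 FPKM in cKO or WT cells, 36.7% were called by the same rule, 19.9% as higher and 16.9% as lower. Calls are more frequent among genes with many reads. Among the 7423 genes whose mean FPKM was at least that of Paox, the lowest of the 10, the share was 44%. Among genes within 2-fold of each gene's own level it ran from 27.6% for Paox to 76.4% for Oaz1, with a mean of 51.7% over the 10. The largest rise was 1.48-fold, in Smox, and the largest fall was to 0.713 of WT, in Srm. The median log2 ratio was 0.11 over the 10 genes and 0.02 over all genes tested, and the median size of the log2 ratio, regardless of sign, was 0.28 and 0.16. With at least a 1.2-fold difference required as well, 4 of the 10 were called (Odc1, Oaz2, Smox and Srm), against 20.4% of all tested genes. That share covers all genes from 1 FPKM and is not matched to the levels of the 10. The authors marked none of the 10 as up or down. None of the 8 calls would stand if the reads of each genotype carried a further variation of 10% (CV), a value assumed here because the true one is unknown. At this CV, 187 of the 10728 tested genes were called. In simulated reads this test found few or no true changes of 1.5-fold, and all 10 genes changed by less. It could therefore hardly have called them, and its outcome says little about them.

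**Figure D1:**
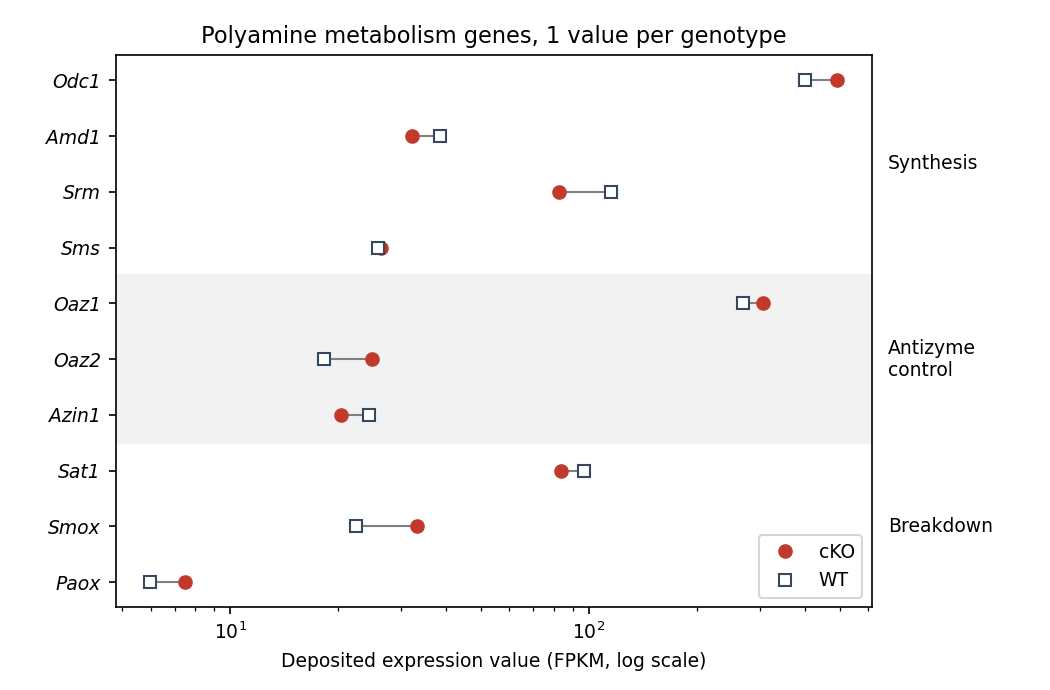
Deposited expression values of the 10 genes in FPKM on a log axis, with filled circles for cKO, open squares for WT and a line joining the 2 values of a gene. Odc1 and Oaz1 lie highest in both genotypes, between 268 and 492 FPKM, and Paox lies lowest, at 7.47 FPKM in cKO and 5.97 FPKM in WT.

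The stretch of 250 bases before the transcript start of each gene was read from RefSeq (GRCm38.p6, an assembly of the mm10 build), and the gene positions given further on are the spans of the whole gene in the same assembly. For Odc1 and Smox that span begins inside the window, because another transcript starts earlier. Windows of 8 of the 10 genes were matched, and those of the 6 matched genes that rose or fell are shown, because they allow the sequences in front of genes that moved in opposite directions to be read side by side. Srm and Azin1 are named only. Each is written 5′ to 3′ on the strand of the gene, and capitals mark any match, on either strand, to 3 motifs, the GC box (GGGCGG or CCGCCC), the E-box (CACGTG) bound by MYC and its relatives, and a G-rich core (GGGGAGG or CCTCCCC) resembling the G-rich DNA that Zfp281 is known to bind.
Odc1, rose, chr12:17544623-17544872, plus strand: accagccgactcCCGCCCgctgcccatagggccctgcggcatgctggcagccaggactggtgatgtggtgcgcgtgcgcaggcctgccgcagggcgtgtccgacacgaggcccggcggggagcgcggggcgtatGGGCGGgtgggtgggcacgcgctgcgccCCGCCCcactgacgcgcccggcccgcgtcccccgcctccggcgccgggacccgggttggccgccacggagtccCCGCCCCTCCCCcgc
Smox, rose, chr2:131491612-131491861, plus strand: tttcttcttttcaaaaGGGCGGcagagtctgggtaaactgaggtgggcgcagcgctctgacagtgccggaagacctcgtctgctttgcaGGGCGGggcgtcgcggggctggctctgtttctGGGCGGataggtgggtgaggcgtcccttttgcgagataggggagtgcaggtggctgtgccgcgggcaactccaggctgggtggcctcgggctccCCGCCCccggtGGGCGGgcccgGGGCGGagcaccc
Oaz2, rose, chr9:65676298-65676547, plus strand: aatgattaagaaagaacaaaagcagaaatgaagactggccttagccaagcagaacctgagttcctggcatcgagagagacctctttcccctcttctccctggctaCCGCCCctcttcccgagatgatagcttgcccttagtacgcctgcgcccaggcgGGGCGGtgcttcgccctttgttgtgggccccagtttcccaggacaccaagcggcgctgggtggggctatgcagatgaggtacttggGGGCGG
Oaz1, rose, chr10:80826406-80826655, plus strand: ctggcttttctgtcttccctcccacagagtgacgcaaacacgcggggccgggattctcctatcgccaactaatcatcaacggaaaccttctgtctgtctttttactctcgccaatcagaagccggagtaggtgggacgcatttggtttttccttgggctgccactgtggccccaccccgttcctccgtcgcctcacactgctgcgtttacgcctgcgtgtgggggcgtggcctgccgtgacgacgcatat
Amd1, fell, chr10:40302189-40302438, minus strand: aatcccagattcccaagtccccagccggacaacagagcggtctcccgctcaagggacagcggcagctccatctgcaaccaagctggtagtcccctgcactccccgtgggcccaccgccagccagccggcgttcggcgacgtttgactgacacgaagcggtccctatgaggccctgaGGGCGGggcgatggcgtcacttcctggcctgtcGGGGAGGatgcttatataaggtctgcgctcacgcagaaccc
Sat1, fell, chrX:155216450-155216699, minus strand: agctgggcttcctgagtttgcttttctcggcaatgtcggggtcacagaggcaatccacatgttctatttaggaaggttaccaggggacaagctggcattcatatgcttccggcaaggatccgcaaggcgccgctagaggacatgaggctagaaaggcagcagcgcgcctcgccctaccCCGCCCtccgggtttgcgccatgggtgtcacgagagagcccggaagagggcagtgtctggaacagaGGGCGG

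The GC box was found 6 times in the window of Smox, 4 times for Odc1, 3 times for Oaz2, 2 times for Sat1, 1 time for Amd1 and 0 times for Oaz1. The last of the 4 in Odc1 lies inside the gene span. Of all 32851 RefSeq windows of this length, 32.7% held at least 1 GC box. The G-rich core was found 1 time each in the windows of Odc1 and Amd1, and 17.2% of all windows held it. In Odc1 it shares 1 base with the last GC box and also lies inside the gene span, not before it. None of the 6 windows held the E-box, which 6.02% of all windows held. Of the 2 windows matched to Sms, 1 held it. Sequence outside the windows was not searched, and Srm and Azin1 had no matched window. These matches are letters in a window and not sites. GC boxes and the G-rich core occurred in the window of a gene that rose and in that of a gene that fell. They also occurred in windows of genes that did not pass, which are not shown. The 2 windows of Sms held 4 and 0 GC boxes and 1 G-rich core each, and the window with 4 lies wholly inside the gene span. The 2 windows of Paox, which overlap, held 1 and 3 GC boxes and no G-rich core. Both lie wholly inside the span of Paox, before a later transcript start. The 6 windows shown were rich in G and C, between 58% for Oaz1 and Oaz2 and 80% for Odc1, against a median of 52.4% over all windows.

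The synthesis enzymes moved in different directions. Odc1, which encodes ornithine decarboxylase, the first and rate-limiting enzyme (NCBI gene 18263, chromosome 12, 17544808 to 17551502), had 492 FPKM in cKO cells and 400.1 FPKM in WT cells. Its level was above that of 99% of the tested genes in cKO cells and 98.7% in WT cells. It rose 1.23-fold (1.21 to 1.25), on an estimated 21596 reads in cKO and 17721 in WT. Among the 150 genes with a mean level within 2-fold of its own, its log2 ratio of 0.30 lay above 88.7%. The authors' deposited table gives an FDR of 1.11e-90, a value that reflects the number of reads as well as the size of the change.

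Srm, encoding spermidine synthase, which joins an aminopropyl group to putrescine (NCBI gene 20810, chromosome 4, 148591513 to 148594619), stood at 82.3 FPKM in cKO cells and 115.5 FPKM in WT cells. It fell to 0.713 of WT (0.671 to 0.757), with an FDR of 9.15e-28 in the authors' deposited table. Of the 1294 genes at a similar level, only 1.55% had a lower log2 ratio. Odc1 and Srm act at successive steps, and the level of Odc1 was 5.98 times that of Srm in cKO cells and 3.46 times in WT cells. This ratio was 1.73-fold higher in cKO (1.62 to 1.84, counting error only).

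Amd1 encodes S-adenosylmethionine decarboxylase, which makes the aminopropyl donor (NCBI gene 11702, chromosome 10, 40287458 to 40302188). It had 32.2 FPKM in cKO cells and 38.4 FPKM in WT cells, a fall to 0.839 of WT (0.788 to 0.894). Sms, the gene of spermine synthase (NCBI gene 20603, chromosome X, 157443851 to 157492287), had nearly the same level in both, 26.2 FPKM in cKO cells and 25.8 FPKM in WT cells. Its fold was 1.017 (0.947 to 1.09), and the authors' deposited table gives it an FDR of 0.787. The counting interval of Sms includes 1 and lies above the intervals of Srm and Amd1.

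The antizyme system split by role, with both antizyme genes higher and the inhibitor gene lower in cKO cells. Oaz1 (NCBI gene 18245, chromosome 10, 80826656 to 80829290), the main antizyme, had 306 FPKM in cKO cells and 268 FPKM in WT cells, a rise of 1.14-fold (1.10 to 1.19). Oaz2 (NCBI gene 18247, chromosome 9, 65676548 to 65690300), an antizyme expressed at a much lower level, had 24.8 FPKM in cKO cells and 18.2 FPKM in WT cells. It rose 1.36-fold (1.22 to 1.52), and its log2 ratio of 0.44 lay above that of 96.7% of the 4329 genes at a similar level.

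Azin1 encodes a relative of ornithine decarboxylase that has no enzyme activity and binds antizyme, releasing the active enzyme (NCBI gene 54375, chromosome 15, 38487430 to 38519294). It had 20.3 FPKM in cKO cells and 24.4 FPKM in WT cells and fell to 0.834 of WT (0.782 to 0.889). The summed level of both antizyme genes was 16.3 times that of Azin1 in cKO cells and 11.7 times in WT cells, 1.39-fold higher in cKO (1.29 to 1.49). The level of Odc1 was 1.49 times the antizyme sum in cKO cells and 1.397 times in WT cells, 1.06-fold higher in cKO (1.02 to 1.11).

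The value of Oaz1 depends on how reads were divided with a copy of the gene. Oaz1-ps is a processed pseudogene on chromosome 17 (17345242 to 17346204), and 52.2% of the 50-base windows of the Oaz1 transcript in GENCODE M21 occur unchanged in it. The table lists Oaz1-ps at 149.6 FPKM in cKO cells and 163 FPKM in WT cells, a fall to 0.920 of WT (0.871 to 0.973) while Oaz1 rose. Of the estimated reads of both, 70% were given to Oaz1 in cKO and 65.2% in WT. With both summed, 8075 reads in cKO and 7647 in WT, the fold was 1.07 (1.033 to 1.10), about 0.09 on the log2 scale in place of 0.19. The rise of Oaz1 is uncertain to this extent, and so are both ratios above that hold it. With the reads of Oaz1-ps added, Odc1 stood at 1.063 times the antizyme sum in cKO cells and 0.932 times in WT cells, 1.14-fold higher in cKO (1.10 to 1.18). The antizyme sum was then 22.8 times Azin1 in cKO cells and 17.6 times in WT cells, 1.29-fold higher in cKO (1.205 to 1.39).

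**Figure D2:**
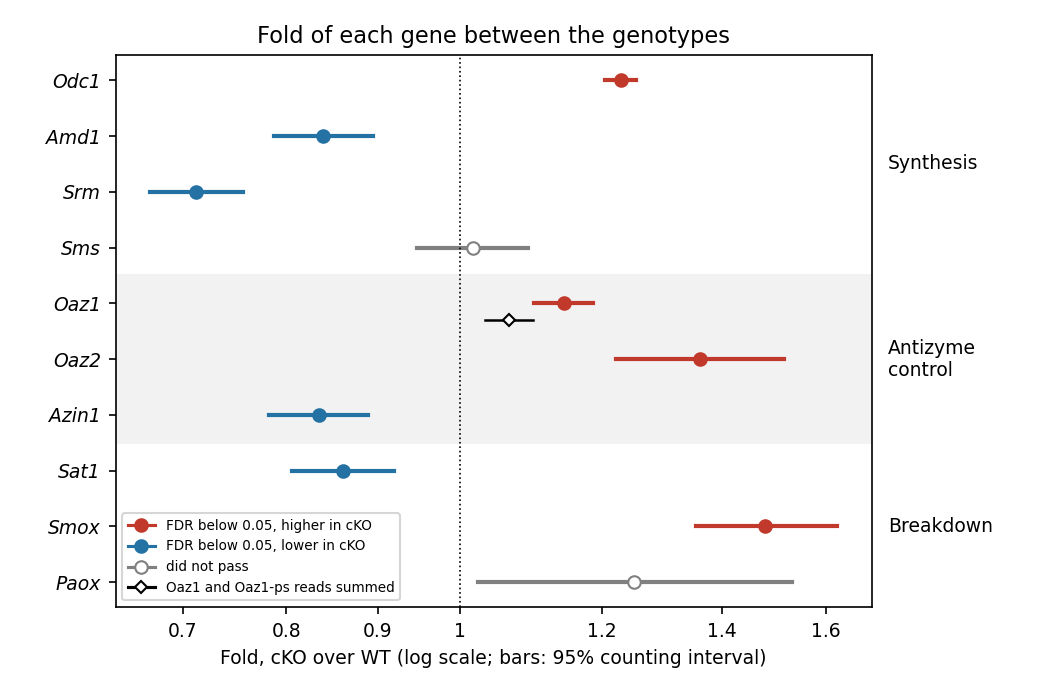
Fold of each gene, cKO over WT, on a log axis with 95% counting intervals, filled where the deposited FDR was below 0.05 and open where it was not. Smox, Oaz2, Odc1 and Oaz1 are the filled points to the right of 1, and Srm lies farthest to the left. The open points of Paox and Sms lie at 1.25 and 1.017. The open diamond shows Oaz1 with the reads of Oaz1-ps added, at 1.07.

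The breakdown enzymes also moved apart. Smox encodes spermine oxidase, which turns spermine directly into spermidine and yields hydrogen peroxide (NCBI gene 228608, chromosome 2, 131491858 to 131525183). It had 33.2 FPKM in cKO cells and 22.4 FPKM in WT cells, the largest rise of the 10, 1.48-fold (1.36 to 1.62), with an FDR of 9.29e-17 in the authors' deposited table. Of the 4048 genes at a similar level, 98.3% had a lower log2 ratio than the 0.57 of Smox.

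Sat1 encodes spermidine/spermine N1-acetyltransferase, which starts the other route of breakdown by acetylating polyamines (NCBI gene 20229, chromosome X, 155213126 to 155216449). It had 83.5 FPKM in cKO cells and 96.99 FPKM in WT cells and fell to 0.861 of WT (0.806 to 0.919). Paox, whose product oxidises those acetylated polyamines (NCBI gene 212503, chromosome 7, 140115735 to 140134334), was the lowest of the 10 at 7.47 FPKM in cKO cells and 5.97 FPKM in WT cells. Its fold of 1.25 (1.023 to 1.53) rests on an estimated 222 reads in cKO and 179 in WT, and it did not pass, with an FDR of 0.0903 in the authors' deposited table. The level of Smox was 0.398 times that of Sat1 in cKO cells and 0.231 times in WT cells, 1.72-fold higher in cKO (1.54 to 1.92).

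**Figure D3:**
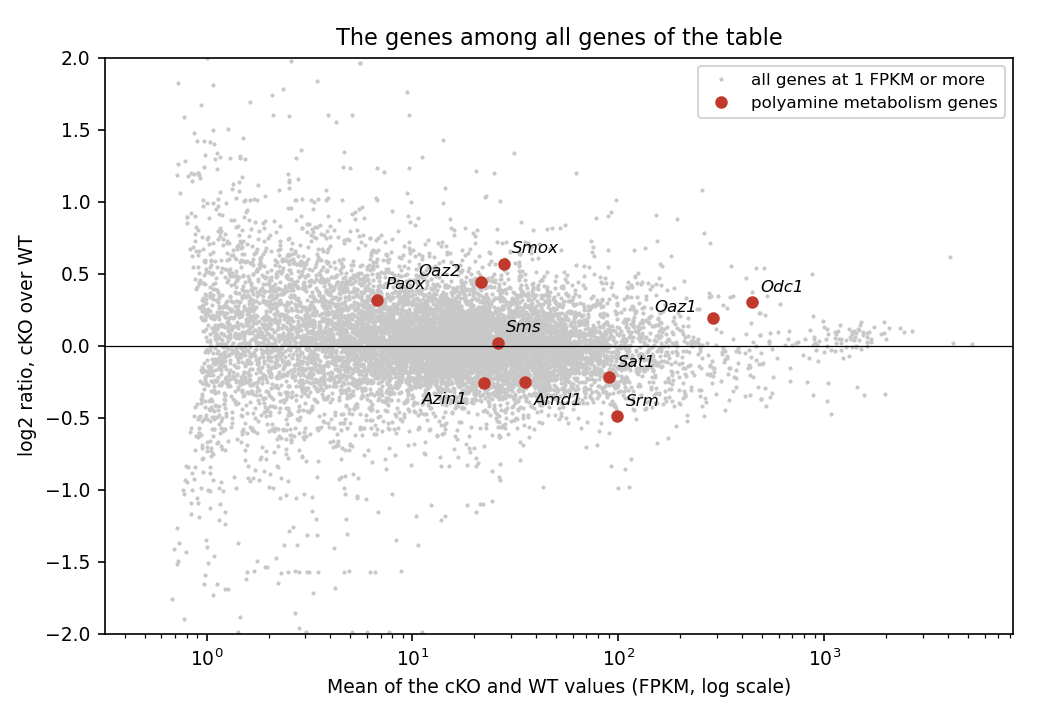
Log2 ratio, cKO over WT, against the mean of both values in FPKM (log axis) for all genes at 1 FPKM or more, with the 10 genes as large points. Srm, Smox and Oaz2 lie near the edge of the genes at their level, Sms lies at its centre, and 139 other genes fall outside the plotted range of ratios.

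Sequence shared with other genes differed between the 10. The 50-base windows were taken from the longest protein-coding GENCODE transcript of each gene. For Paox this gave 4606 windows, while its deposited length is 1737 bases. The share of Paox may therefore lie in sequence that was not counted. Azin1 and Smox shared no 50-base window with any other GENCODE gene, and Srm shared 2.4%. Sms shared 28.7%, Paox 28.1%, Oaz2 12% and Sat1 7.28%. Genes that were also measured accounted for 3.22% in Sms, 0.434% in Paox and 0 in Oaz2 and Sat1. Amd1 shared 86.1% of its windows with Amd2, a near-identical copy, but Amd2 was listed at 0.15 FPKM in cKO cells and at 0 in WT cells. Adding its reads left Amd1 at 0.843 of WT (0.791 to 0.898). Odc1 shared 42.2% of its windows with 15 processed pseudogenes. Only 1 of these, Gm15645, which shared 4.08%, was also measured, at 17.9 FPKM in cKO cells and 16.6 FPKM in WT cells. Exons of Azin1 overlap the antisense gene Gm49077 over 358 bases, and exons of Paox overlap Echs1, also on the other strand, over 142 bases. Oaz1 shares 74 bases with Mir1982 on its own strand, which the table lists at 45.8 FPKM in cKO cells and 28.7 FPKM in WT cells. The sources used here do not say whether the counting used strand, and strand would not separate Mir1982 from Oaz1.

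The pathway around the 10 genes was described with 35 further genes, of which 31 were in the table and 23 had at least 1 FPKM. Of these 23, 2 rose and 9 fell in cKO cells, 47.8% against the 36.7% of all tested genes, and their median log2 ratio was -0.13, against 0.02 over all tested genes. Among genes within 2-fold of each gene's own level, the share called ran from 16.4% for Slc18b1 to 75% for Eif5a. The total and the counts by list below are to be read beside these shares, and no excess is read from them. Of the other antizyme, decarboxylase and inhibitor genes of the same families, Oaz3 had 0.12 FPKM in cKO cells and 0.49 FPKM in WT cells, and Azin2 had 0.03 FPKM in both.

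Of 11 listed genes of arginine and ornithine supply, 6 reached 1 FPKM, of which 1 rose and 3 fell. Slc3a2, the heavy chain of several amino acid exchangers, had 103 FPKM in cKO cells and 113 FPKM in WT cells and fell to 0.911 of WT (0.875 to 0.948). Slc7a1, the arginine transporter CAT1, fell to 0.763 of WT, and Aldh18a1, which makes the precursor of proline and ornithine from glutamate, fell to 0.750 (0.697 to 0.806). Oat, ornithine aminotransferase, was the 1 that rose, with 25.7 FPKM in cKO cells and 19.99 FPKM in WT cells, 1.28-fold (1.17 to 1.41). Both arginase genes were nearly silent, Arg1 at 0.20 FPKM in cKO cells and 0.23 FPKM in WT cells and Arg2 at 0.12 FPKM in cKO cells and 0.21 FPKM in WT cells. Ass1, argininosuccinate synthase, did not pass, at 63.6 FPKM in cKO cells and 59.99 FPKM in WT cells.

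Of 5 listed genes that supply methionine and S-adenosylmethionine, 4 were in the table and reached 1 FPKM, of which 2 fell. Mat2a, the catalytic subunit of S-adenosylmethionine synthetase in most tissues, had 159 FPKM in cKO cells and 212 FPKM in WT cells and fell to 0.749 of WT (0.727 to 0.771). Slc7a5, a transporter of large neutral amino acids including methionine, fell to 0.770 (0.737 to 0.805). The regulatory subunit gene Mat2b and Ahcy, which clears S-adenosylhomocysteine, did not pass, with folds of 1.07 (0.996 to 1.15) and 0.924 (0.823 to 1.04).

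Spermidine and spermine synthesis release methylthioadenosine, which is recycled to methionine. Mtap, the first enzyme of this salvage, had 21.8 FPKM in cKO cells and 32.1 FPKM in WT cells and fell to 0.677 of WT (0.623 to 0.735), a lower fold than that of any of the 10 genes. Only 1.24% of the 4097 genes at its level had a lower log2 ratio. The later enzymes Mri1, Enoph1, Adi1 and Apip did not pass, with folds between 0.916 for Enoph1 and 1.197 for Apip.

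Spermidine is also the source of hypusine, a modified lysine found in the translation factor eIF5A. Eif5a, which encodes it, had 428 FPKM in cKO cells and 554 FPKM in WT cells and fell to 0.772 of WT (0.752 to 0.793). Dhps, deoxyhypusine synthase, fell to 0.858 (0.763 to 0.966), with an FDR of 0.0397 in the authors' deposited table. Dohh, which completes the modification, did not pass at 0.993 (0.882 to 1.12), and neither did Eif5a2, at 0.817 (0.687 to 0.973) and an FDR of 0.0763 in the authors' deposited table.

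Of 5 listed polyamine transport genes, 4 reached 1 FPKM, of which 1 rose and 1 fell. Atp13a2, a lysosomal polyamine exporter, had 13.2 FPKM in cKO cells and 9.58 FPKM in WT cells and rose 1.38-fold (1.25 to 1.52). Atp13a3, a related transporter linked to polyamine uptake, had 33.7 FPKM in cKO cells and 38.2 FPKM in WT cells and fell to 0.882 of WT (0.847 to 0.920). Gpc1 and Slc18b1 lay below 3 FPKM in both genotypes and did not pass, and Slc12a8 had 0.30 FPKM in cKO cells and 0.14 FPKM in WT cells.

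**Figure D4:**
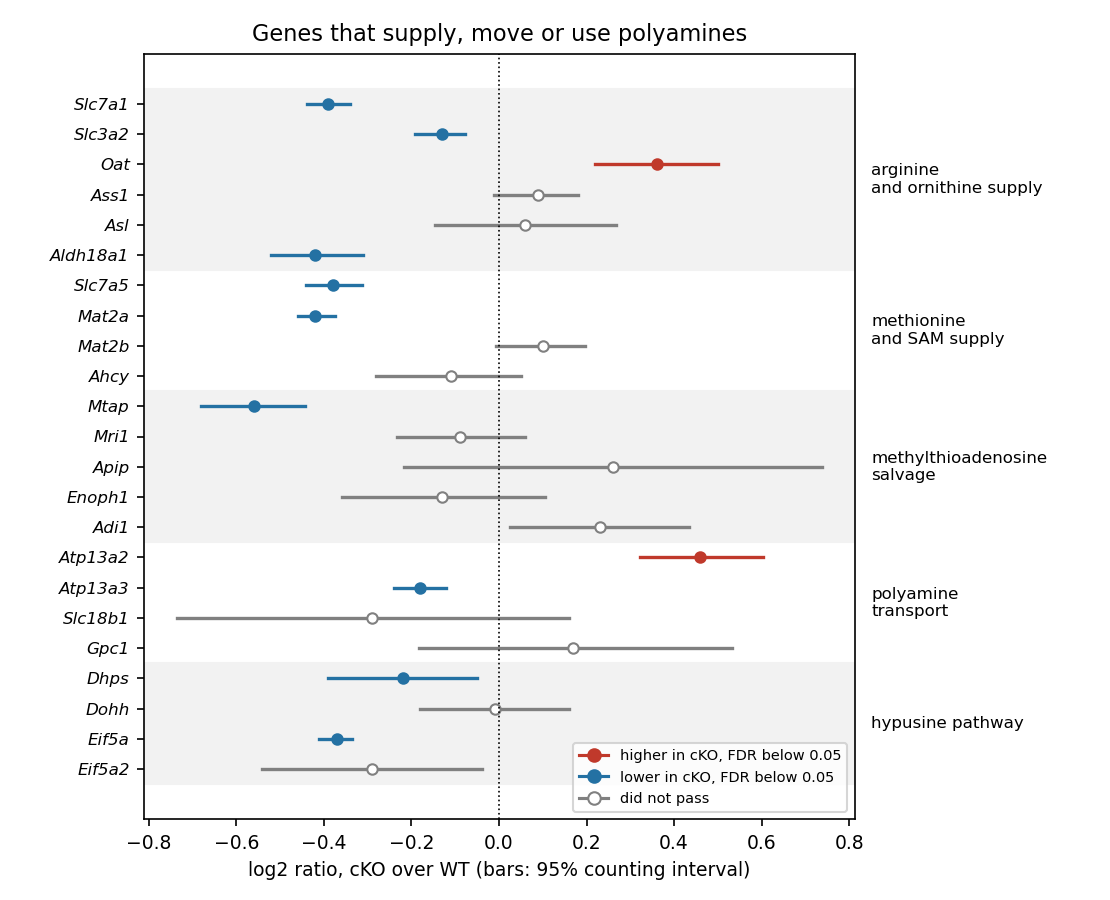
Log2 ratio, cKO over WT, with 95% counting intervals for the 23 further pathway genes at 1 FPKM or more, grouped by role and filled where the deposited FDR was below 0.05. Of the filled points, only Oat and Atp13a2 lie to the right of 0, where several open points also lie. Mtap lies farthest to the left, while Slc7a1, Aldh18a1, Slc7a5, Mat2a and Eif5a lie close together near -0.4.

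The labels were checked on the targeted gene and on cell markers. Zfp281 had 0.44 FPKM in cKO cells and 66.3 FPKM in WT cells. The 6 T cell markers (Cd3e, Cd3d, Cd3g, Cd4, Lck and Cd2) each had at least 196 FPKM, summing to 1758 FPKM in cKO cells and 2018 FPKM in WT cells, and 5 of the 6 fell. Among the 240 genes at or above the level of the lowest of these markers, 73.3% were called and 37.9% were called lower. Of 2 CD8 T cell markers, Cd8b1 rose, with 17.8 FPKM in cKO cells and 11.5 FPKM in WT cells, and Cd8a had 0.47 FPKM in cKO cells and 0.28 FPKM in WT cells. The 4 B cell markers summed to 3.53 FPKM in cKO cells and 2.38 FPKM in WT cells, with none called. The 4 myeloid markers summed to 1.72 FPKM in cKO cells and 0.95 FPKM in WT cells, and 1, Lyz2, rose. The 2 NK markers measured, of 3 listed, and the 3 erythroid markers summed to under 1 FPKM each in both genotypes, with Hbb-bs at 0 in cKO cells. The part of these cells in the differences above was not tested.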

How the data were processed

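Per the labels' protocols, libraries of total RNA were run on a BGISEQ-500 instrument. Bowtie2 2.2.5 and the build mm10 are named in the submitters' processing notes. The sources used here do not name the quantifier, the annotation or the test. The authors deposited 1 FPKM column per genotype, in which 0 is written as 0.01, with a log2 fold change (the log2 ratio of the columns), a p-value and an FDR per gene. The deposited FDR passes 1, at most 1.03, and was therefore treated as a score. It was copied as the authors' own, as were the log2 fold change and the p-value.

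Reads per gene were estimated from genes with a single read, whose FPKM times length less 36 bases came within 10% of 1 value for 91.1% of 202 genes in cKO and 90.4% of 188 genes in WT. These genes were recognised by their shared deposited p-value. The 36 bases were chosen on the same genes to bring their values closest together, so this agreement is partly built in. The scale, 56.7 FPKM bases per read, and the depth ratio of 0.991 were fitted to the deposited p-values. A recomputed read test gave log10 p-values that correlated with the deposited ones at r = 0.999 across 16706 genes, which are not independent, and part of this was fitted. Estimated reads served for intervals and alternatives only.

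Genes were called at a deposited FDR below 0.05 with at least 1 FPKM in either genotype. The 10 members and the further gene lists were chosen with earlier results of these data known. Named were all 10 members, Zfp281, paralogues and copies in the table, and up to 4 genes per list with the highest mean FPKM. Oat, Arg1, Arg2, Apip, Slc12a8, Gm15645, Gm49077, Mir1982, Echs1 and Myc were named after their values were seen. The ratios between members were also chosen then. The read tests were run on simulated data with known folds. There the read test called few unchanged genes when reads varied by counting error alone, and a large share of them once further variation was added to the reads. The test with an assumed CV of 10% called few or no true changes of 1.2-fold or 1.5-fold. Python 3.11.15, SciPy 1.17.1 and pandas 2.3.3 were used. Alternatives were other pseudocounts on the log2(FPKM + 1) scale, a median log2 ratio set to 0, other filters and call rules, an assumed CV of 10%, and, added after seeing the data, a recomputed read test, a range of CVs and Oaz1-ps added to Oaz1, also in its ratios.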

Additional observations from a re-analysis of the deposited data

How the results depend on the processing

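The counts of 4 members up and 4 down were the same with no filter, with at least 5 FPKM and in the recomputed read test. With a change of at least 1.2-fold also required, 3 members were up (Odc1, Oaz2 and Smox) and 1 down (Srm). Of all tested genes, not matched to the members' levels, 20.4% were called. By the authors' own mark 0 members were up and 0 down, and 0 further genes up and 0 down. When a CV of 10% was assumed for the reads of each genotype, the counts were again 0 and 0 for the members and 0 and 0 for the further genes, by construction of a wider error. Over all tested genes, 187 were then called. Under a rising CV, Smox passed up to 8%, Srm up to 7%, Oaz2 up to 6%, Odc1 up to 5%, Amd1 and Azin1 up to 4%, and Oaz1 and Sat1 up to 3%. Of 41 alternative values of the members' log2(FPKM + 1) changes, 0 reversed and 1 moved beyond its counting interval, Oaz1, at 0.09 with Oaz1-ps added and 0.19 without. No paired analysis was possible because the table holds 1 column per genotype and no value for a single library, and leaving out replicates was not run for the same reason. Paox had the fewest estimated reads of the 10, 222 in cKO and 179 in WT. Variation between libraries could not be measured for any gene.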

Other observations

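Odc1 and Srm are both textbook targets of the transcription factor MYC. Myc itself had 121 FPKM in cKO cells and 140 FPKM in WT cells, 0.864 of WT (0.832 to 0.897), with an FDR of 6.79e-13 in the authors' deposited table. Srm lay on the same side as Myc and Odc1 on the other. A link between these changes was not tested.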
